A study of Drosophila melanogaster with 14 samples.

Results

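p53 and Corp are 2 of the 16727 genes counted by RNA sequencing in cultured Drosophila melanogaster ovarian somatic cells (OSCs), and they are described here in each of the 8 RNA libraries. They were taken by name from the table of counts. The pair was selected on its measured levels, which were higher in both libraries after depletion of the MBT-repeat chromatin protein L(3)mbt than in the control, so their levels and fold changes are given as a description and carry no test. OSCs are a line of somatic cells of the fly ovary, of follicle-cell origin. All cells carried an RNAi treatment of 48 hours. In the control group, EGFP KD, it was directed at EGFP, a sequence that fly cells lack. In the groups L(3)mbt KD, Lint-1 KD and Lint-O KD it was directed at l(3)mbt or at the gene of one of its interactors, Lint-1 or Lint-O. Each group had 2 libraries of polyadenylated RNA, from the same line with no other genotype or agent in the labels. The labels do not tell if paired libraries are separate cultures, so p-values cover only the spread between these libraries, which may be technical. The ChIP and input samples, 6 in number, were not used here.

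p53 is the fly's one member of the p53 family of transcription factors. After DNA damage the kinases ATM and Chk2 activate it, largely through changes to the protein and not through more mRNA, and it then induces the cell-death genes rpr, hid and skl and genes of DNA repair. Corp (companion of reaper) is induced by p53 in flies, and its product binds p53 and lowers the amount of p53 protein, a role compared to that of Mdm2 in mammals. In the ovary p53 is best known from germ cells, where it is active in stem cells and during meiotic recombination. An mRNA level says nothing of the amount or activity of the protein.

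Reads assigned to genes ranged from 18293791 to 20978039 per library. Levels are CPM, the share of a library's reads scaled to a fixed total, normalised with TMM, a scaling that sets the libraries to a common level across most genes, and are given as mean ± SD with n = 2. Of the counts from 1 to 20 in a library, 69.3% to 86.6% were even numbers, so many low counts moved in steps of 2, and intervals for counting error, which treat reads as independent, are too narrow. The RNAi targets were lower under their own labels. Against EGFP KD, l(3)mbt went from 186.5 to 99.3 CPM under its own RNAi, Lint-1 from 54.4 to 10.98 CPM, and the gene of Lint-O (listed as CG2662) from 18.97 to 1.57 CPM. The 5 markers of somatic ovarian cells (tj, piwi, fs(1)Yb, zfh1 and Fas3) were all detected in every group, with a summed level of 1075 to 1449 CPM over the 8 libraries. The 5 hemocyte markers (Hml, NimC1, srp, eater and He) summed to 2.94 to 9.57 CPM in the control and 3.09 to 7.81 CPM in the knockdowns, and NimC1, eater and He had no count in the control. The 8 germ cell markers (vas, nos, aub, AGO3, bam, osk, ovo and otu) summed to 14.5 to 18.3 CPM in EGFP KD, 200.1 to 203 CPM in L(3)mbt KD, 78.5 to 83.7 CPM in Lint-1 KD and 114.8 to 143.7 CPM in Lint-O KD. Of the 6 that could be tested, vas, nos, aub, AGO3 and ovo rose in each knockdown (edgeR adjusted p under 0.05) and bam did not pass. Of all tested genes, 9.58%, 8.41% and 5.2% were called higher in L(3)mbt KD, Lint-1 KD and Lint-O KD. nos, with 0 and 2 control counts, entered the test only through its knockdown counts, so its calls are a description. otu had no count in any library and osk none in 2 of the knockdowns, those of L(3)mbt and Lint-O. The summed level of these markers was above the control in every knockdown, as p53 and Corp were. It was higher in Lint-O KD than in Lint-1 KD, mostly through vas (63.1 against 12.3 CPM). aub was also higher in Lint-O KD (41.1 against 36.3 CPM). nos (0.944 against 5.52 CPM) was lower in Lint-O KD, as p53 and Corp were. The means of AGO3 (6.13 against 6.56), bam (14.4 against 15.9) and ovo (3.565 against 4.48) were also lower there, but their libraries overlapped between these groups. Of the 6 tested markers, edgeR called only vas and nos between Lint-1 KD and Lint-O KD, where 1.18% of all tested genes were called. The part of these transcripts in the levels of the pair was not tested. In bulk RNA, more cells with a transcript and more of it per cell cannot be told apart.

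p53 lies on chromosome 3R of dm6, written as 3R:23049657-23054082 for the whole gene. It was a moderately abundant transcript in the control and higher in every knockdown, in the order L(3)mbt KD, Lint-1 KD, Lint-O KD, EGFP KD. The counts were 665 and 715 in EGFP KD, 1875 and 2206 in L(3)mbt KD, 1511 and 1418 in Lint-1 KD, and 1061 and 1003 in Lint-O KD. After normalisation the levels in CPM were 36.9 and 37.2 in EGFP KD, 97.1 and 113.5 in L(3)mbt KD, 70.3 and 74.3 in Lint-1 KD, and 55.6 and 52.6 in Lint-O KD. All 6 knockdown libraries lay above both control libraries, and no 2 neighbouring groups in the order overlapped. How many genes had knockdowns that did not overlap each other was not counted, so nothing is read from that separation. Among all 8244 tested genes, both libraries lay above both control libraries for 26.6% in L(3)mbt KD, 29.6% in Lint-1 KD and 21.8% in Lint-O KD, and nothing is read from p53 being among them.

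**Figure D1:**
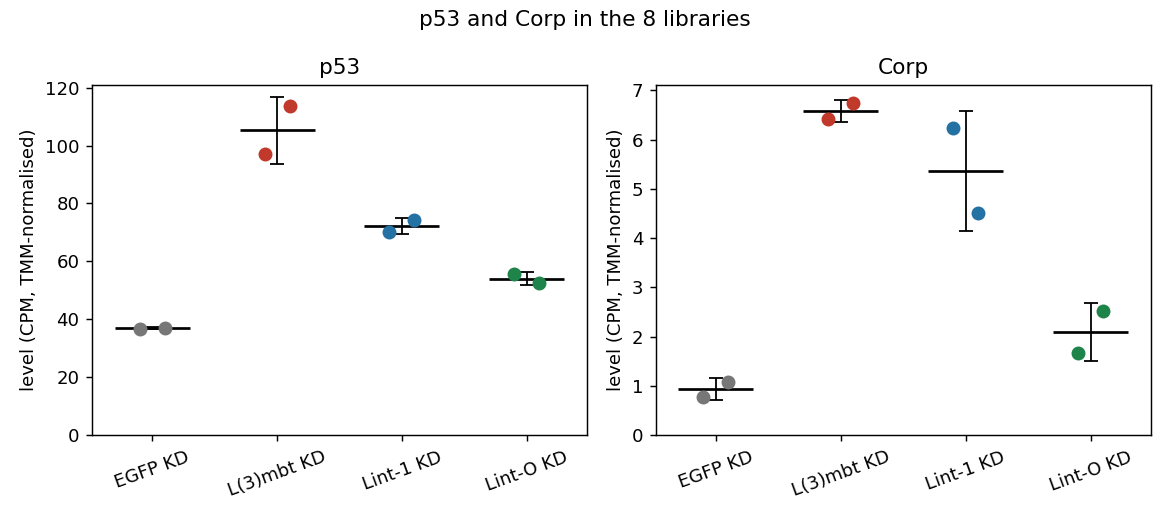
Levels of p53 and Corp in CPM (vertical axes, linear, starting at 0) in the 4 groups; points are single libraries, horizontal lines the mean and bars the SD of 2 libraries. p53 falls from 105.3 CPM in L(3)mbt KD through Lint-1 KD and Lint-O KD to 37.0 CPM in EGFP KD, and Corp has its highest libraries in L(3)mbt KD and Lint-1 KD.

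As group means, p53 stood at 37.0 ± 0.226 CPM in the control and 105.3 ± 11.6 CPM after L(3)mbt depletion, which is 2.84-fold, or 1.51 on the log2 scale (SE 0.130). In Lint-1 KD the mean was 72.3 ± 2.83 CPM, a log2 fold change of 0.96 (SE 0.129), or 1.95-fold. In Lint-O KD it was 54.1 ± 2.12 CPM, a log2 fold change of 0.55 (SE 0.129), or 1.46-fold. The median log2 fold change of all tested genes was close to 0 in each comparison (-0.012, -0.007 and -0.009 in the same order). The fold change of p53 lay above that of most genes but far from the top. It ranked 687 of 8244 in L(3)mbt KD, 891 in Lint-1 KD and 1003 in Lint-O KD, counted from the largest rise.

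Between the knockdowns, p53 in L(3)mbt KD was higher than Lint-1 KD by a log2 difference of 0.54 (SE 0.127) and higher than Lint-O KD by 0.96 (SE 0.128). Lint-1 KD was higher than Lint-O KD by 0.42 (SE 0.127). The lowest L(3)mbt KD library, at 97.1 CPM, lay above the highest Lint-1 KD library, at 74.3 CPM. The lowest Lint-1 KD library, at 70.3 CPM, lay above the highest Lint-O KD library, at 55.6 CPM. These gaps are a description, without a share of all genes beside them.

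Corp lies on the X chromosome (X:8269898-8271409, whole gene). It was barely detected in the control and its fold changes were larger than those of p53. The counts were 14 and 21 in EGFP KD, 124 and 131 in L(3)mbt KD, 134 and 86 in Lint-1 KD, and 32 and 48 in Lint-O KD. The levels in CPM were 0.776 and 1.09 in EGFP KD, 6.42 and 6.74 in L(3)mbt KD, 6.23 and 4.50 in Lint-1 KD, and 1.68 and 2.52 in Lint-O KD. Every knockdown library lay above both control libraries. The same held for 26.6% of all tested genes in L(3)mbt KD, 29.6% in Lint-1 KD and 21.8% in Lint-O KD. Nothing is read from Corp being among them. L(3)mbt KD and Lint-1 KD formed the upper pair of groups, and Lint-O KD lay between them and the control.

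The mean level of Corp was 0.934 ± 0.223 CPM in the control and 6.58 ± 0.226 CPM after L(3)mbt depletion, which is 6.98-fold, or 2.80 on the log2 scale (SE 0.347). From the summed counts of 35 and 255 the 95% exact counting interval of the ratio was 4.91 to 10.3. In Lint-1 KD the mean was 5.37 ± 1.22 CPM, a log2 fold change of 2.51 (SE 0.348), or 5.71-fold, with a counting interval of the ratio of 4.03 to 8.50. In Lint-O KD the mean was 2.10 ± 0.594 CPM, a log2 fold change of 1.16 (SE 0.367), or 2.23-fold, with a counting interval of 1.48 to 3.42. The rank of the change among 8244 genes was 334 in L(3)mbt KD, 333 in Lint-1 KD and 616 in Lint-O KD.

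Between knockdowns, Corp in L(3)mbt KD and Lint-1 KD differed by a log2 value of 0.29 with an SE of 0.294. The highest Lint-1 KD library, at 6.23 CPM, lay just under the lowest L(3)mbt KD library, at 6.42 CPM, and that gap was smaller than the distance between the Lint-1 KD libraries. Lint-O KD lay lower than L(3)mbt KD by a log2 difference of 1.65 (SE 0.316) and lower than Lint-1 KD by 1.36 (SE 0.316). Lint-O KD had the smallest change of the 3 knockdowns in both genes.

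Set against p53 in the same library, Corp gave 2.11 and 2.94 CPM for each 100 CPM of p53 in EGFP KD, 6.61 and 5.94 in L(3)mbt KD, 8.87 and 6.06 in Lint-1 KD, and 3.02 and 4.79 in Lint-O KD. These ratios are not corrected for gene length and serve only to compare libraries. The ratio was higher in all 4 libraries of L(3)mbt KD and Lint-1 KD than in the other libraries. The lower Lint-O KD library, at 3.02, lay close to the higher control library, at 2.94. Across the 8 libraries the log2 levels of p53 and Corp had a Pearson correlation of 0.94, a description that reflects 4 groups of 2 libraries and not 8 independent conditions. By that measure Corp ranked 57 among the 8243 other tested genes in likeness to p53, and p53 ranked 107 in likeness to Corp.

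Both genes share bases with other annotated genes. The gustatory receptor gene Gr94a (3R:23051689-23052903) lies wholly inside p53, and an antisense RNA gene, asRNA:CR46089, overlaps 1167 bases of its end and has no line in the table under that name. Corp lies wholly inside the span of CG1632 (X:8252670-8272462). The library kit kept strand, but the strand setting of the counting is not recorded in the labels or the table, so how reads on shared bases were assigned is unknown, and counts of Gr94a, p53, CG1632 and Corp are uncertain to that extent.

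Gr94a did not follow p53. It had 40 and 22 counts in EGFP KD, 36 and 49 in L(3)mbt KD, 42 and 24 in Lint-1 KD, and 20 and 29 in Lint-O KD, and the groups overlapped in every comparison with the control (edgeR adjusted p = 0.658, 0.958 and 0.908). The genes on either side of p53 that could be tested were CG17121, 1443 bases away, CG17119 (current symbol Ctns), 328 bases away, and sav, a gene of the Hippo pathway, 4527 bases away. None of the 3 passed in any knockdown. CG17121 went from 36.8 ± 0.903 to 44.2 ± 5.97 CPM with L(3)mbt depleted (log2 fold change 0.26, edgeR adjusted p = 0.319), and sav from 39.9 ± 3.51 to 46.2 ± 5.60 CPM (0.21, edgeR adjusted p = 0.455). CG17119 was near the limit of detection, with 2 and 7 control counts and 16 and 20 counts after L(3)mbt depletion (a log2 change of 1.92 with an SE of 0.705, edgeR adjusted p = 0.130). Further out, CG13837 had at most 9 counts in a library and was not tested.

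CG1632, around Corp, was higher in the knockdowns as Corp was, at lower counts. It had 6 and 9 counts in EGFP KD, 39 and 25 in L(3)mbt KD, 13 and 28 in Lint-1 KD, and 16 and 20 in Lint-O KD. The log2 fold changes were 2.02 (SE 0.604, edgeR adjusted p = 0.0683) in L(3)mbt KD, 1.34 (SE 0.623, 0.232) in Lint-1 KD and 1.22 (SE 0.630, 0.5) in Lint-O KD, none past the threshold. The other neighbours of Corp were CG15343 and CG1636 on one side and ND75 and Trxr-1, a thioredoxin reductase gene, on the other. Their log2 fold changes lay between -0.25 and 0.18 in the 3 knockdowns, and none passed. ND75 (current symbol ND-75), of mitochondrial complex I, had the lowest of these, from 546.2 ± 40.4 CPM in EGFP KD to 460.7 ± 75.9 CPM in L(3)mbt KD (-0.25, edgeR adjusted p = 0.345).

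**Figure D2:**
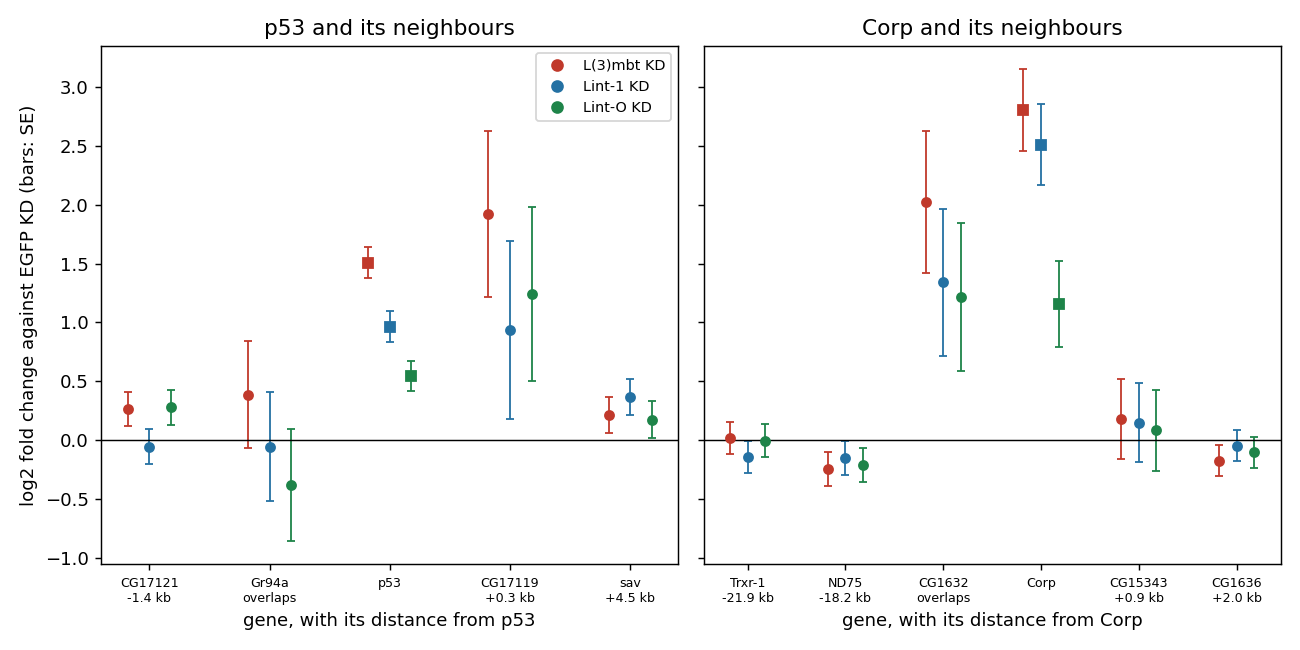
Log2 fold changes against EGFP KD (vertical axis, bars are the SE) of p53, Corp (squares) and their tested neighbours (circles), ordered by position, with each gene's distance in kb. CG1632 around Corp lies between 1.22 and 2.02, and the remaining neighbours apart from CG17119 lie between -0.38 and 0.39.

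The genes that p53 acts with were taken as 5 lists of 51 genes, all with a line in the table, of which 46 were abundant enough to test. The lists were chosen with earlier results of these data known, so their shares and adjusted p-values are not independent evidence. In L(3)mbt KD 3 rose and 1 fell, which is 8.70% of the 46, against 10.9% of all 8244 tested genes (9.58% higher and 1.31% lower). In Lint-1 KD 2 rose and 1 fell, 6.52% against 9.66% of all tested genes (8.41% higher, 1.25% lower). In Lint-O KD 3 rose and none fell, 6.52% against 5.46% of all tested genes (5.2% higher, 0.255% lower). In the model of the 8 libraries with the low-count filter, the share of called genes was thus near the background in each knockdown. Without that filter it was 16.7% of 48 in Lint-1 KD, against 9.62% of all tested genes. The median log2 fold change of the 46 was -0.043 in L(3)mbt KD, -0.147 in Lint-1 KD and 0.005 in Lint-O KD. The count in L(3)mbt KD was 2 without EGFP KD 1 or EGFP KD 2 and 10 without L(3)mbt KD 1 (21.7% of the 46, against 14.4% of all tested genes in that fit), and that in Lint-1 KD was 1 without EGFP KD 1, Lint-1 KD 1 or Lint-1 KD 2 and 2 without EGFP KD 2. In Lint-O KD it was 2 without any one of the 4 libraries. Leaving out L(3)mbt KD 1 added Blm, Brca2, Bruce, egr, nbs, rad50 and Sir2 in L(3)mbt KD, and dropping the low-count filter added Claspin, CycG, egr, grp and rad50 in Lint-1 KD. With the replicate number as a block the count was 3, 1 and 2 in L(3)mbt KD, Lint-1 KD and Lint-O KD. These were 6.52%, 2.17% and 4.35% of the 46, against 8.28%, 7.19% and 4.11% of all tested genes.

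The list of damage-induced targets of p53 held 6 genes, of which neither edgeR, in the model of the 8 libraries with the low-count filter, nor DESeq2 called any, and 1 (egr) had an unadjusted p under 0.05 in L(3)mbt KD and in Lint-1 KD. rpr, skl and grim, which encode antagonists of the inhibitors of apoptosis, had too few counts to test. rpr had 4 and 4 counts in EGFP KD, 16 and 0 in L(3)mbt KD, 6 and 6 in Lint-1 KD, and 8 and 0 in Lint-O KD. skl had none in EGFP KD and at most 5 in a knockdown library, and grim had no count in any library, which allows up to 0.140 to 0.166 CPM depending on the library (3 counts, counting error only). For rpr the ratio of summed counts to the control had an exact counting interval of 0.777 to 5.19 in L(3)mbt KD. This interval was 0.518 to 3.88 in Lint-1 KD and 0.32 to 2.99 in Lint-O KD, for counting error only. Small changes in rpr, skl and grim were not detectable at this depth. Damm (below) also had few control counts, but it entered the test only through its knockdown counts. Its call therefore says nothing of rpr, skl and grim. The remaining antagonist gene, hid (listed as W), had 3 and 10 counts in EGFP KD and 10 and 19 in L(3)mbt KD. It had 20 and 18 in Lint-1 KD, and 6 and 21 in Lint-O KD. Its log2 fold changes of 1.10 (SE 0.796), 1.42 (SE 0.776) and 1.02 (SE 0.801) did not pass (edgeR adjusted p = 0.449, 0.303 and 0.775).

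The remaining damage-induced targets were well expressed and did not pass in that model. egr, the fly tumour necrosis factor ligand, stood at 86.0 ± 10.0 CPM in EGFP KD, 57.4 ± 19.1 CPM in L(3)mbt KD, 56.7 ± 9.06 CPM in Lint-1 KD and 87.6 ± 3.46 CPM in Lint-O KD. Its values in the first 2 knockdowns lay under both control libraries, as did those of 22.4% and 26.7% of all tested genes (log2 changes of -0.58 and -0.60, edgeR adjusted p = 0.137 and 0.135). egr passed as a fall in L(3)mbt KD without L(3)mbt KD 1, and in both of these knockdowns without the low-count filter. Xrp1, a transcription factor gene induced by p53 after irradiation, stood at 491.4 CPM in EGFP KD, 430.0 CPM in L(3)mbt KD, 334.2 CPM in Lint-1 KD and 441.8 CPM in Lint-O KD, and its libraries overlapped the control in each (edgeR adjusted p = 0.763, 0.333 and 0.967).

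Of 13 genes of DNA damage signalling, upstream of p53, 1 fell in Lint-1 KD (7.69%, where 1.25% of all tested genes were called lower) and none passed in the other knockdowns. At an unadjusted p under 0.05 there were 5 such genes in Lint-1 KD, 1 in L(3)mbt KD and 1 in Lint-O KD. The share of all tested genes under that unadjusted threshold was not counted, so nothing is read from these numbers. DESeq2 called none in L(3)mbt KD or Lint-O KD. Without L(3)mbt KD 1, nbs and rad50 were called in L(3)mbt KD. The one called was nbs, a subunit of the Mre11-Rad50-Nbs complex that senses broken DNA, at 538 and 693 counts in EGFP KD and 417 and 310 in Lint-1 KD. Its mean fell, from 32.9 ± 4.39 to 17.8 ± 2.23 CPM, by a log2 change of -0.89 with an SE of 0.230 (edgeR adjusted p = 0.0427). Leaving out any one of the 4 libraries ended that call, at log2 changes of -1.02 to -0.74, as did the replicate block (edgeR adjusted p = 0.0759). It held with DESeq2 (adjusted p = 0.00453). In edgeR it held without the low-count filter (0.00539), in a fit of the 4 libraries alone (0.0252) and with upper-quartile scaling (0.0382). It also held with DESeq2 size factors (0.0401) and the stricter filter (0.0441).

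The kinases of the pathway were all expressed. lok, the fly Chk2, stood at 124.4 ± 4.74 CPM in EGFP KD, 152.5 ± 26.4 in L(3)mbt KD, 164.8 ± 16.0 in Lint-1 KD and 139.5 ± 4.60 in Lint-O KD (edgeR adjusted p = 0.243, 0.117 and 0.810). grp, the fly Chk1, stood at 136.5 ± 5.63, 171.0 ± 22.5, 190.3 ± 29.7 and 133.6 ± 3.37 CPM in the same order (edgeR adjusted p = 0.197, 0.0719 and 0.992). For both kinases every library of L(3)mbt KD and Lint-1 KD lay above both control libraries, as did 26.6% and 29.6% of all tested genes, by amounts that did not pass, though grp was called in Lint-1 KD by DESeq2 and without the low-count filter. tefu, the fly ATM, stood at 24.6 CPM in EGFP KD and 15.8, 14.5 and 21.2 CPM in the knockdowns, and mei-41, the fly ATR, at 59.7 CPM and 52.0, 53.3 and 46.7 CPM, again without a call.

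Of 11 tested genes of break repair and nucleotide supply, 1 fell in L(3)mbt KD (9.09%, where 1.31% of all tested genes were called lower) and none was called in Lint-1 KD or Lint-O KD, where none had an unadjusted p under 0.05 in edgeR and DESeq2 called none. The called gene was okr, the fly Rad54, whose mean fell from 38.5 ± 0.729 to 26.6 ± 0.338 CPM by a log2 change of -0.53 with an SE of 0.141 (edgeR adjusted p = 0.0424). Its call ended when any one of the 4 libraries was left out, at log2 changes of -0.55 to -0.51. It also ended in edgeR with upper-quartile scaling (adjusted p = 0.0610) and without the low-count filter (0.0614). A fit of the 4 libraries alone (0.145) and the replicate block (0.0837) ended it too. The call held with DESeq2 (adjusted p = 0.0238), and in edgeR with DESeq2 size factors (0.0409) and the stricter filter (0.0429). Of 7 regulators of the p53 protein (Sir2, sip3, lwr, smt3, CycG, Usp7 and nej), none was called in any knockdown by edgeR in the model of the 8 libraries with the low-count filter. At an unadjusted p under 0.05 there were 2 in Lint-1 KD and none in the others, with no share of all tested genes to set beside them. DESeq2 called CycG in Lint-1 KD. In edgeR, CycG was called in Lint-1 KD without the low-count filter, and Sir2 in L(3)mbt KD without L(3)mbt KD 1.

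The list in which genes rose was that of caspases, their inhibitors and Bcl-2 genes. Of 12 tested members, 3 rose in L(3)mbt KD (25%, against 9.58% of all tested genes), 2 in Lint-1 KD (16.7%, against 8.41%) and 3 in Lint-O KD (25%, against 5.2%), and none fell. They were debcl, dream and Damm, with dream not called in Lint-1 KD. These shares are a description, as the list was chosen with earlier results of these data known. Damm, moreover, entered the test only through its knockdown counts. The median log2 fold change of the 12 was 0.24, 0.14 and 0.08 in the same order.

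debcl (current symbol Debcl, 2R:6648654-6652842), a Bcl-2 family gene whose product promotes cell death in flies, had 295 and 286 counts in EGFP KD, 1044 and 1153 in L(3)mbt KD, 1084 and 1056 in Lint-1 KD, and 992 and 895 in Lint-O KD. All knockdown libraries lay far above the control and the 3 knockdowns lay close together. The mean rose from 15.6 ± 1.05 CPM to 56.7 ± 3.72 CPM with L(3)mbt depleted, by 1.86 on the log2 scale (SE 0.144; edgeR adjusted p = 5.96e-05). It rose to 52.9 ± 3.47 CPM in Lint-1 KD (1.76, SE 0.144, edgeR adjusted p = 8.28e-05) and to 49.5 ± 3.57 CPM in Lint-O KD (1.66, SE 0.144, edgeR adjusted p = 0.000163). Between knockdowns debcl was not called, and its log2 differences were 0.10 to 0.20 with an SE of 0.137 (edgeR adjusted p from 0.541 to 0.996). None of the 46 pathway genes was called between knockdowns in edgeR, where 0.0728% of all tested genes were called between L(3)mbt KD and Lint-1 KD, 0.704% between L(3)mbt KD and Lint-O KD and 1.18% between Lint-1 KD and Lint-O KD. At an unadjusted p under 0.05 there were 3, 6 and 9 of the 46. The matching share of all tested genes was not counted, and nothing is read from these numbers. Buffy, the other Bcl-2 family gene of the fly, was not called in any knockdown.

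dream (current symbol Strica, 2R:6020311-6023144), a caspase gene, had 40 and 36 counts in EGFP KD, 134 and 96 in L(3)mbt KD, 84 and 60 in Lint-1 KD, and 130 and 132 in Lint-O KD. It rose from 2.04 ± 0.244 to 5.94 ± 1.41 CPM with L(3)mbt depleted, by 1.54 on the log2 scale (SE 0.283; edgeR adjusted p = 0.00753), and to 6.87 ± 0.078 CPM in Lint-O KD (1.75, SE 0.282, edgeR adjusted p = 0.00595). In Lint-1 KD it stood at 3.52 ± 0.540 CPM and did not pass (0.79, edgeR adjusted p = 0.136). Without EGFP KD 2 the calls ended, at an adjusted p of 0.0594 in L(3)mbt KD and 0.0536 in Lint-O KD. The highest mean of dream was thus in Lint-O KD, where p53 had its smallest change, although the libraries of Lint-O KD and L(3)mbt KD overlapped in dream (edgeR adjusted p = 0.747).

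Damm (2R:11864112-11866383), another caspase gene, had 0 and 2 counts in EGFP KD, 20 and 21 in L(3)mbt KD, 20 and 14 in Lint-1 KD, and 20 and 17 in Lint-O KD. The ratio of the summed counts to the control was 19.7 in L(3)mbt KD (95% exact counting interval 5.12 to 168, edgeR adjusted p = 0.0126). It was 15.6 in Lint-1 KD (4 to 134, edgeR adjusted p = 0.0245) and 18.1 in Lint-O KD (4.66 to 155, edgeR adjusted p = 0.0255). These calls rest on few counts. Damm passed the low-count filter only through the knockdown libraries, so its adjusted p-values are a description and not independent support. Without EGFP KD 1 the fitted log2 fold changes in L(3)mbt KD, Lint-1 KD and Lint-O KD were 3.27, 2.93 and 3.14, against 4.15, 3.81 and 4.03 with it. EGFP KD 1 had no count, so without EGFP KD 2 the control was at 0 and the fitted values depend on the prior count. The calls ended without EGFP KD 1 (adjusted p = 0.0739 in L(3)mbt KD, 0.116 in Lint-1 KD and 0.141 in Lint-O KD). They also ended without Lint-1 KD 1 (0.0974) or its replicate 2 (0.0702), and without Lint-O KD 1 (0.117) or its replicate 2 (0.0856). Fits of the 4 libraries alone gave adjusted p-values of 0.0555 to 0.0636, and the replicate block 0.0528 in Lint-1 KD and 0.0604 in Lint-O KD.

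The core of the cell-death machinery was expressed and was not called in the model of the 8 libraries. The initiator caspase gene Nc (current symbol Dronc) stood at 26.0 ± 2.01 CPM in EGFP KD, 34.8 ± 4.08 in L(3)mbt KD, 34.6 ± 2.56 in Lint-1 KD and 27.3 ± 0.0588 in Lint-O KD (edgeR adjusted p = 0.131, 0.144 and 0.973). The effector caspase gene Ice (Drice) stood at 145.6, 167.6, 157.7 and 143.2 CPM in the same order of groups. Ark (Dark), the adaptor that activates Dronc, stood at 36.1, 28.6, 28.7 and 36.9 CPM, and th (Diap1), the main inhibitor of these caspases, at 133.8, 128.7, 126.3 and 114.2 CPM. None of the 3 passed in any knockdown, with lowest edgeR adjusted p-values of 0.394 for Ice, 0.421 for Ark and 0.426 for th. For Nc, every library of L(3)mbt KD and Lint-1 KD lay above both control libraries, as did 26.6% and 29.6% of all tested genes. Its unadjusted edgeR p was 0.0235 in L(3)mbt KD and 0.0253 in Lint-1 KD.

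**Figure D3:**
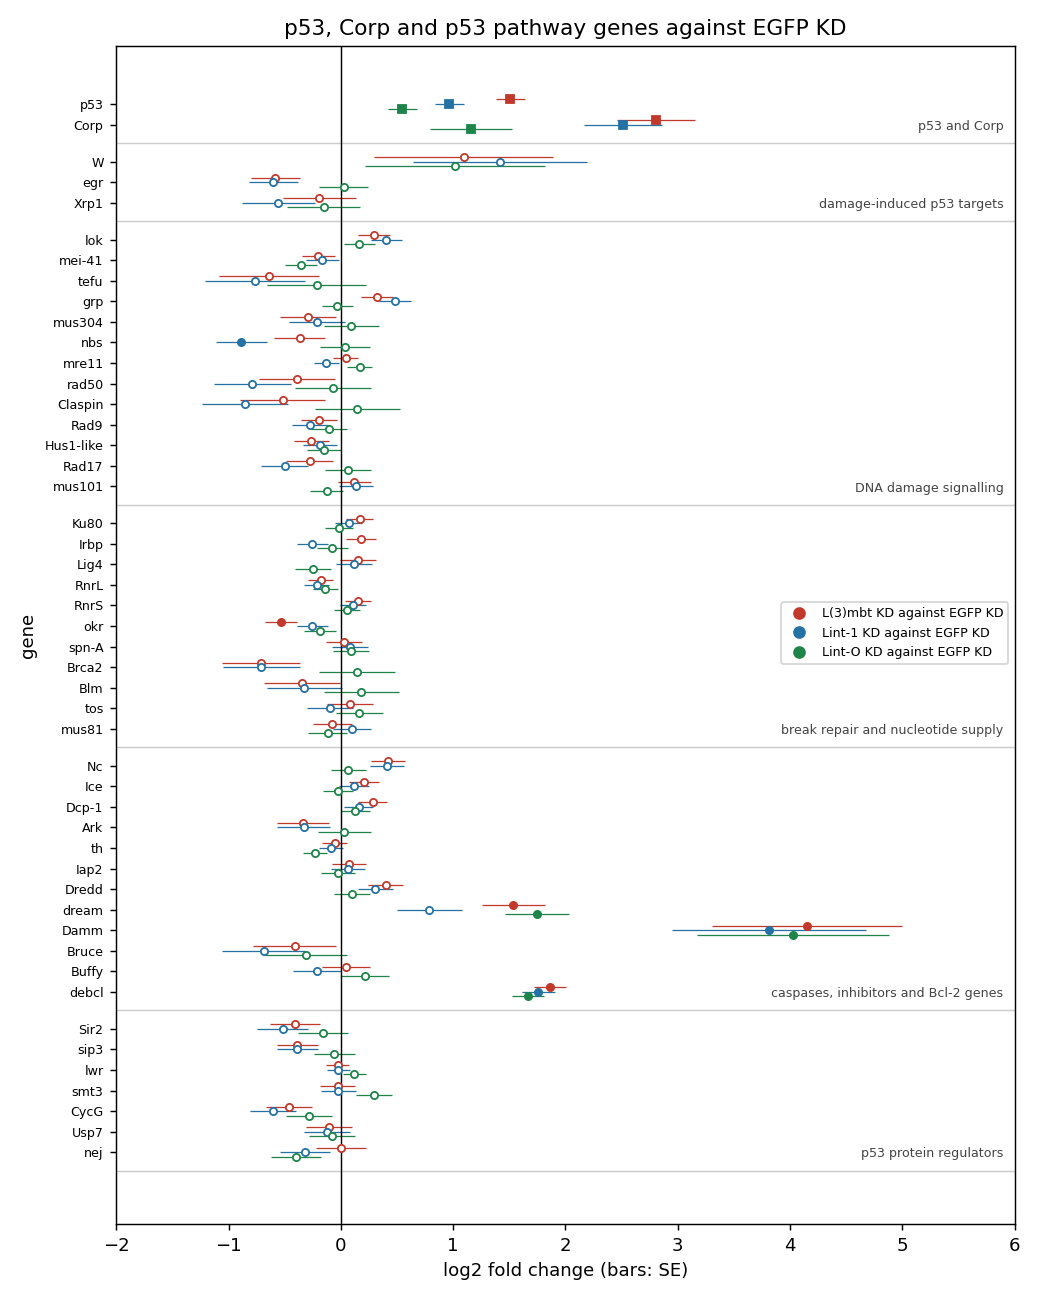
Log2 fold change against EGFP KD (horizontal axis, bars are the SE) of p53 and Corp (squares, not tested) and of the 46 tested p53 pathway genes by list, in the 3 knockdowns. Filled circles passed (edgeR adjusted p under 0.05) and open circles did not; debcl, dream and Damm are the rises, okr and nbs the falls.

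Over the 8 libraries, the tested genes with a mean of at least 5 CPM whose pattern was most like that of p53 were CG5118, CG2065, RpS5b, magu and CG17684, with Pearson correlations of log2 levels of 0.989, 0.979, 0.976, 0.971 and 0.969 among 6641 genes. The correlations describe 4 groups of 2 libraries. Each of the 5 had its highest mean in L(3)mbt KD and its lowest in EGFP KD, as their choice by likeness favours. The size of the step differed between them. RpS5b, a ribosomal protein gene enriched in the germline, stood at 154.0 ± 20 CPM in EGFP KD, 1290 ± 240 in L(3)mbt KD, 912.2 ± 30.5 in Lint-1 KD and 353.7 ± 48.4 in Lint-O KD. CG5118 (current symbol Charon), the nearest in pattern, stood at 32.5 ± 2.14, 58.5 ± 2.26, 49.2 ± 0.580 and 41.2 ± 0.727 CPM. magu, which encodes a secreted modulator of BMP signalling, spanned only 124.6 ± 3.54 to 186.8 ± 19.1 CPM.

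Those most like Corp were CG8316, CG42258, sn, CG43783 and bgcn, with correlations of 0.993, 0.989, 0.977, 0.976 and 0.975 among 6642 genes. CG8316 (current symbol corolla), a gene of the synaptonemal complex of meiosis, stood at 10.9 ± 0.951 CPM in EGFP KD, 30.5 ± 0.246 in L(3)mbt KD, 26.1 ± 2.23 in Lint-1 KD and 17.5 ± 1.27 in Lint-O KD. sn, which encodes the actin-bundling protein fascin, stood at 12.6 ± 1.33, 37.4 ± 0.161, 33.1 ± 2.02 and 23.3 ± 0.717 CPM. bgcn, a partner of the germ cell differentiation factor bam, stood at 2.37 ± 0.766, 20.6 ± 4.36, 16.6 ± 1.05 and 6.79 ± 0.107 CPM. In all 3 the order of the groups was that of Corp, and Lint-O KD lay between the control and the other knockdowns. They were picked for likeness to Corp in these libraries, so the shared order is no separate result. CG43783 had its highest mean in Lint-1 KD (47.6 CPM, against 46.4 CPM in L(3)mbt KD). No gene was among the 5 nearest of both p53 and Corp.

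**Figure D4:**
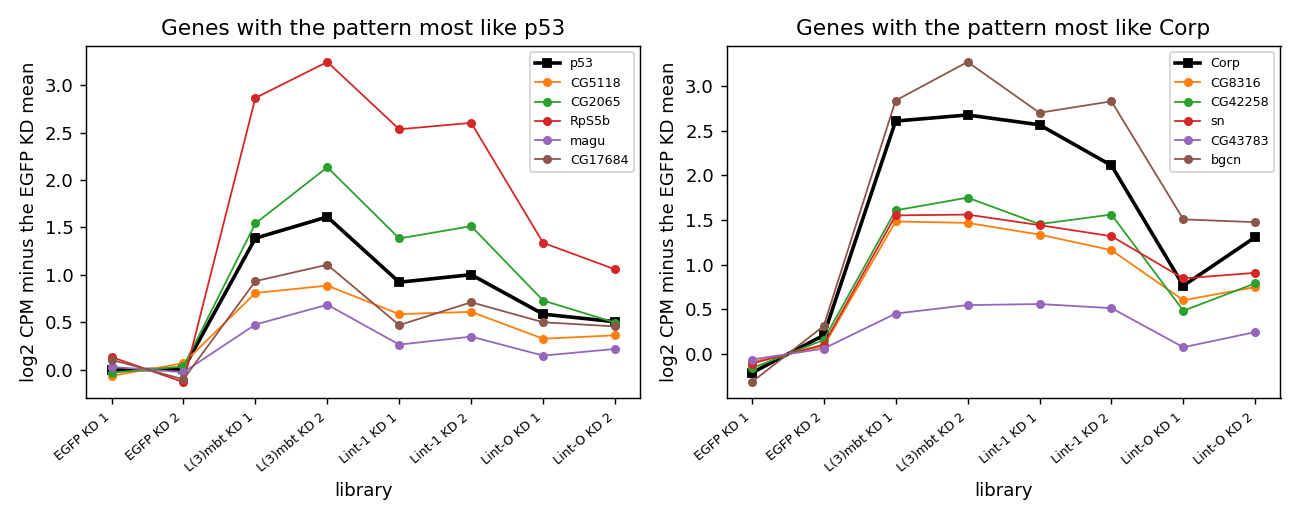
Log2 CPM minus the EGFP KD mean (vertical axis) in the 8 libraries for p53 (left) and Corp (right), in black, and the 5 genes with the highest Pearson correlation to each; lines only join the points of a gene. The p53 set descends from L(3)mbt KD to Lint-O KD, and the Corp set stays high in both L(3)mbt KD and Lint-1 KD.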

How the data were processed

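The authors deposited raw counts of reads per gene for 8 RNA libraries. The submitters' processing notes list HISAT2, HTSeq, edgeR and the build dm6, without versions; the annotation release and strand setting were not stated. The labels' protocols name poly-A selection and a stranded kit. The 5 lines that name no gene were left out; among them, unassigned reads were 14.96% to 18.51% and ambiguous reads 1.05% to 1.13% of a library. Positions are whole-gene spans from RefSeq's gene table, which has the same assembly. Within groups, libraries differed by more than sampling noise (chi-square divided by its degrees of freedom, 22.6 to 54.0).

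edgeR 4.0.16 in R 4.3.3 was run with filterByExpr, TMM factors (0.948 to 1.056) and one quasi-likelihood model of group for the 8 libraries (residual df 4). Genes with a Benjamini-Hochberg adjusted p under 0.05 over all 8244 tested genes were called. SE is the size of the log2 fold change divided by the square root of F. Log2 levels used a prior count of 3. The procedure was tested on simulated counts.

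p53, Corp and the gene lists were chosen with earlier results of these data known. Named genes were p53 and Corp, the RNAi targets, every called pathway gene plus a fixed set of kinases, caspases and p53 targets, the 2 nearest neighbours on each side and any overlapping gene, and the 5 genes closest in pattern; not every one is given with its SE. Alternatives were DESeq2 size factors, upper-quartile scaling, DESeq2 1.42.0, no low-count filter or a stricter one (1 CPM in 2 or more libraries, with 50 counts in total), a model of the 4 libraries compared, a replicate block, and each library left out.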

Additional observations from a re-analysis of the deposited data

How the results depend on the processing

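With each library left out in turn, p53 ranged from 1.39 to 1.62 in L(3)mbt KD, 0.93 to 1.00 in Lint-1 KD and 0.51 to 0.59 in Lint-O KD, and Corp from 2.58 to 3.07, 2.26 to 2.78 and 0.84 to 1.43. The values under every other alternative run lay within these ranges. The number of called p53 pathway genes moved more. In L(3)mbt KD (4 genes) it was 2 in a fit of the 4 libraries alone and 2 to 10 with a library left out. In Lint-1 KD (3 genes) it was 5 with DESeq2 (10.9% of the 46, against 12% of all tested genes in that fit). Without the low-count filter it was 8 in Lint-1 KD (16.7% of 48, against 9.62%). In Lint-1 KD and Lint-O KD it was lower with any library left out. The cause was not tested. debcl was called under every alternative in each knockdown. Where a group was left with 1 library, that library is assumed to vary like the others.

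The replicate numbers pair nothing in the labels. Deviations of same-numbered libraries correlated from -0.377 to 0.356 across genes between groups. With the replicate number as a block, 3, 1 and 2 pathway genes were called in L(3)mbt KD, Lint-1 KD and Lint-O KD. These were 6.52%, 2.17% and 4.35% of the 46, against 8.28%, 7.19% and 4.11% of all tested genes. In that fit p53 in L(3)mbt KD stood at 1.51. A crossed block in the 4 libraries compared, chosen after seeing the data, gave 18 calls in L(3)mbt KD (39.1% of the 46, against 30.3% of all tested genes in that fit) and 17 in Lint-1 KD (37%, against 29%). With 35 control counts, depth limits the precision of Corp.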
